A study of Mus musculus with 15 samples.

Results

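The ASMM10P probes are the oligonucleotide spots of an Agilent mouse array whose manufacturer's name begins with ASMM10P followed by a number, as in ASMM10P019637V4. They were chosen by that name alone among the spots that are not controls, and no measured value entered the choice. There were 7912 of them among 60823 probes, or 13%. Each had 1 spot on each array, the spots lay on all 384 rows and all 164 columns, and 49.8% lay in the upper rows and 49.8% in the left columns. For all 7912 the scanner files repeat the probe's own name where a transcript accession could stand. No table used here pairs any of them with a gene, a position or a sequence, so each is known by its identifier alone and none could be checked against markers of the tissue. What the letters of the name stand for is not stated in the files.

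RNA came from the ipsilateral striatum of male mice, with 5 arrays in each of 3 groups. Sham mice, the controls for the hemorrhage, were given distilled water by gavage. ICH mice had an intracerebral hemorrhage and were given water in the same way. BYHWD mice had the hemorrhage and were given Buyang Huanwu decoction by gavage at 6.19 g/kg each day. All tissue was taken at day 14. By its title, the study looked for gene expression signatures of treatment with the decoction. The labels give neither the strain, the age nor the way the hemorrhage was made, and do not say that the 5 samples of a group came from separate mice. The p-values below therefore measure the spread between these samples, which may be technical.

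An intracerebral hemorrhage is bleeding into the brain tissue itself, and the striatum is a common site of it. Blood pressing on the tissue, the breakdown of hemoglobin with release of iron, and inflammation led by microglia and invading leukocytes are the known course of the injury, followed by clearance of the clot and scarring. Buyang Huanwu decoction is a formula of traditional Chinese medicine built on astragalus root that is given after stroke. On a single-colour array, labelled copies of the sample's RNA bind to short DNA probes, and the brightness of a spot follows the amount bound. Brightness also depends on how well a probe binds, so amounts of RNA are compared between arrays for 1 probe and not between probes. Where probes are ranked or set side by side by brightness below, this describes signal and not amount of RNA. In bulk tissue, fewer cells of a type and less RNA per cell cannot be told apart.

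Values below are log2 signals minus the 75th percentile of the same array, so that a level of 0 is as bright as that percentile and a difference of 1 is 2-fold. The 75th percentile ranged from 261 to 540 units of signal over the 15 arrays. The arrays lay on 3 slides, read from the scan identifiers. All 5 sham arrays shared slide 1 with the arrays ICH 2 and ICH 3. The remaining ICH arrays (ICH 1, ICH 4, ICH 5) were on slide 2, and slide 3 carried the 5 BYHWD arrays. The BYHWD group therefore cannot be told apart from its slide, while ICH and sham can be compared within slide 1. Signal of the Gapdh control probes near the 3′ end exceeded that near the 5′ end, on the log2 scale, by 0.01 to 0.41 in sham, 0.33 and 0.52 in the ICH arrays of slide 1, 0.61 to 0.79 in those of slide 2, and 0.32 to 0.60 in BYHWD. This difference, which grows as RNA is degraded, moved with slide as well as with group, and its part in the results below was not tested.

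On each array 74.9% to 81.4% of the ASMM10P probes were well above background in the scanner software's own flag. Sham arrays ran from 76.1% to 81.4%, ICH arrays from 74.9% to 78.9% and BYHWD arrays from 76.0% to 79.4%, so the groups overlapped. It was lower than in the other large name classes of the array, which ran from 86.2% to 89.8% for the 22359 ASMM10AP1B probes and from 81.5% to 87.1% for the 27812 ASMM10LNC1A probes. Over the 15 arrays, 5411 members were well above background on all, 954 on 5 to 14, 516 on 1 to 4 and 1031 on none. No member spot was saturated on any array. The test took the 6342 members that were well above background on at least 5 arrays and had no left-out spot, beside 51669 probes in all. Among the tested probes ranked by mean level, split into 4 equal sets, the dimmest set held 29.5% of the tested members and the brightest 21.8%.

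The median level of all 7912 members lay between -2.94 and -2.58 on the 15 arrays. In sham it was -2.94, -2.77, -2.84, -2.72 and -2.75 for sham 1 to sham 5. In ICH it was -2.81 and -2.82 on the arrays of slide 1 and -2.64, -2.60 and -2.61 on those of slide 2. In BYHWD it was -2.59, -2.60, -2.63, -2.77 and -2.58 for BYHWD 1 to BYHWD 5. The ICH arrays of slide 1 thus lay within the range of sham on the same slide, and those of slide 2 lay above every sham array. The median over all probes showed the same pattern, so it was not particular to the members. For sham it ran from -2.30 to -2.19. On the ICH arrays it was -2.23 and -2.22 for slide 1 and -2.13 to -2.10 for slide 2.

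The authors' deposited table of log2 values held 6913 of the members, or 87.4%, with 25360 of the ASMM10LNC1A probes and 0 of the ASMM10AP1B probes. All 6527 members that were well above background on at least 3 arrays were in it. So were 154 members that were well above background on 0 arrays and 232 on 1 or 2, so this flag alone does not mark which members it holds. The 999 members outside it were well above background on 0 arrays (877 members) or on 1 or 2 (122 members), and none of them was tested here. Their median signal was 2.48 units and the highest was 6.77, against a median of 79.9 for the members inside. Over the tested members, the deposited values followed the values used here with r between 0.908 and 0.993 per array after each probe's mean was removed, which is a correlation across probes within an array.

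Between arrays of 1 group a tested member had a median SD of 0.25 for sham, 0.28 for ICH and 0.21 for BYHWD, each with n = 5. All other tested probes had medians of 0.22, 0.27 and 0.19. Within the 3 ICH arrays of slide 2 alone, the members' median SD was 0.20. Of the 6342 tested members, 104 had an SD over 1 in sham (1.64%, against 1.03% of other probes), 108 in ICH (1.70%, against 2.09%) and 25 in BYHWD (0.39%, against 0.33%). The software's own error estimate for a member's spot had a median of 10.4% to 11% of the signal on each array. Members have no repeat spots, but 50 other probes have 10 each. The median SD between those spots was 0.04 to 0.05 on slide 1, 0.09 to 0.13 on slide 2 and 0.07 to 0.14 on slide 3, so repeat spots varied more on the arrays of slides 2 and 3.

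In the striatum after hemorrhage, 258 of the 6342 tested members differed from sham (limma, Benjamini-Hochberg adjusted p under 0.05 over all tested probes), of which 206 rose and 52 fell. This is 4.07% of the members, near the 5.03% called among all tested probes. The rises were 3.25% of the members against 4.07% of all probes, and the falls 0.82% against 0.954%. Most changes were small: the 206 rises had a median of 0.72 (1.64-fold) and the 52 falls a median of -0.85 (1.80-fold), and 62 members passed the test with at least a 2-fold difference (0.98%, against 1.5% of all probes). Over all 6342 tested members the median difference was 0.07, beside 0.05 over all tested probes. In 157 of the called members the 5 ICH arrays did not overlap with the 5 sham arrays (2.48%, against 3.19% of all probes).

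These calls depended on which ICH arrays entered. The slide 2 ICH arrays had a median difference from sham of 0.12 over the tested members, and the slide 1 ICH arrays one of -0.01. With slide as a fixed block, which compares ICH 2 and ICH 3 with the 5 sham arrays beside them on slide 1, 3 of the 6342 members passed (limma), against 0.339% of all probes. Of the members, 304 had an unadjusted p under 0.05 in that fit (4.79%, against 5.91% of all probes). With slide as a random block (correlation between arrays of a slide 0.361), 19 members passed, against 0.697% of all probes. Leaving out ICH 2 gave 1027 called members and leaving out ICH 3 gave 999. Leaving out ICH 1, ICH 4 or ICH 5 gave 53, 55 and 33, and leaving out sham 1 to sham 5 gave 73, 109, 110, 64 and 101. The share called over all probes is not given for the fits with an array left out. These swings are therefore not shown to be particular to the members. Quantile normalization gave 243 members with 68.7% of them higher in ICH, against 79.8% higher in the values above.

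ASMM10P019637V4 showed the largest rise after hemorrhage among members well above background on all 15 arrays, with no overlap of the groups and a pass in both the plain and the slide-blocked test. Its level was -4.58, -4.26, -5.38, -4.85 and -3.44 in sham 1 to sham 5 and -1.68, -1.90, -1.51, -3.00 and -2.0 in ICH 1 to ICH 5. Every ICH array, of either slide, was above every sham array. The mean rose from -4.50 ± 0.72 to -2.02 ± 0.58 (SD, n = 5), a difference of 2.48 ± 0.39 (SE) or 5.59-fold (limma adjusted p = 0.00528). Within slide 1 the difference was 2.79 (limma adjusted p = 0.0404). The adjusted p was 0.0599 when the ICH arrays of slide 2 were removed from the fit, and the difference was 0.93 with normexp background correction on median signals followed by quantile normalization. In BYHWD its levels were -3.71, -1.90, -2.66, -2.49 and -1.75, spread over a wider range than the ICH levels. BYHWD was 2.0 above sham (limma adjusted p = 0.00427, and 0.445 with slide as a random block), with BYHWD 1 below sham 5. BYHWD minus ICH was -0.48 ± 0.39 (SE), which did not pass (limma adjusted p = 0.428).

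The other 2 members past the slide-blocked test are named here after their values were seen. ASMM10P012916V4 had levels of -0.58, -0.59, -0.30, -0.29 and -0.19 in sham 1 to sham 5 and 0.19, 0.68, 0.89, 0.19 and 0.83 in ICH 1 to ICH 5. Again no ICH array overlapped with a sham array. The rise was 0.95 ± 0.16 (SE), or 1.93-fold (limma adjusted p = 0.00625), and 1.18 within slide 1 (limma adjusted p = 0.0265). It passed under every alternative run for this comparison, with adjusted p from 0.00266 to 0.0368, and it was the 1 member called when the ICH arrays of slide 2 were left out. These alternatives include the slide-blocked test by which it was chosen. The fit without the slide 2 ICH arrays gave the same difference as that test, 1.18. Its BYHWD levels of -0.00, 0.49, 0.05, 0.04 and 0.03 lay between the sham and ICH means of -0.39 and 0.56. BYHWD minus ICH was -0.43 ± 0.16 (SE), which did not pass (limma adjusted p = 0.0989). It was -0.66 against the ICH arrays of slide 1 (limma adjusted p = 0.0490) and -0.28 against those of slide 2 (0.220). BYHWD was 0.51 above sham (limma adjusted p = 0.0370). That call was lost, with adjusted p of 0.0519 to 0.0996, without sham 1, sham 2, sham 3, BYHWD 2, BYHWD 3, BYHWD 4 or BYHWD 5. It was also lost when scaled on the ASMM10P probes alone (0.0730) and with slide as a random block (0.581).

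For ASMM10P032819V4 the ICH arrays of the 2 slides lay on opposite sides of the sham arrays, which were all on slide 1. Its sham levels were -4.26, -3.93, -3.86, -4.11 and -3.80. ICH 2 and ICH 3 stood at -4.79 and -4.64, below every sham array of their slide, while ICH 1, ICH 4 and ICH 5 stood at -3.04, -3.26 and -3.27, above every sham array. The difference from sham was -0.72 within slide 1 (limma adjusted p = 0.0429, and 0.0698 with the ICH arrays of slide 2 removed) and 0.80 for the slide 2 arrays (limma adjusted p = 0.000137). Slide 2 held no sham array, so in the 0.80 hemorrhage and slide cannot be told apart. The arrays of slide 2 were 1.53 ± 0.15 (SE) above those of slide 1 (limma adjusted p = 1.29e-05). Pooled over slides, ICH differed from sham by 0.19 ± 0.29 (SE), with a limma adjusted p of 0.697. Its 5 BYHWD levels lay between -3.75 and -3.43, between the ICH arrays of the different slides.

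ASMM10P050649V4 showed the largest fall after hemorrhage in the test without a block. Its level was 0.99, 0.59, 0.38, 0.43 and 0.63 in sham 1 to sham 5 and -3.41, 0.25, 0.28, -3.05 and -3.22 in ICH 1 to ICH 5. Every ICH array was below every sham array, but ICH 2 and ICH 3 were close to sham while the 3 arrays of slide 2 were far below. The difference was -2.44 ± 0.63 (SE), with a limma adjusted p of 0.0383. Within slide 1 it was -0.34 (limma adjusted p = 0.949), and for the arrays of slide 2 it was -3.83. BYHWD levels were -0.17, -0.49, -0.71, -0.44 and -0.97, between those of the ICH slides and below every sham array. The call was lost without any 1 of the sham arrays, of ICH 1, ICH 4 and ICH 5, or of BYHWD 2, BYHWD 3 and BYHWD 4, with adjusted p of 0.0512 to 0.120. It was also lost in the authors' deposited table (0.0586), in the fit of ICH and sham alone (0.118) and with slide as a random block (0.442). BYHWD minus ICH was 1.28 over all arrays (limma adjusted p = 0.198), 1.80 without ICH 3 (0.0455), -0.82 against ICH 2 and ICH 3 alone (0.0218), and 2.67 against the arrays of slide 2 (2.2e-06).

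With the ICH group divided by slide, 2025 members differed between its slide 2 arrays and sham (31.9%, limma, against 36.5% of all probes). The ICH arrays of slide 2 differed from those of slide 1 at 1166 of 6342 members (18.4%, limma), against 22.0% of all tested probes. Of these, 718 were higher on slide 2 (11.3%, as for all probes with 11.3%) and 448 lower (7.06%, against 10.7% of all probes). A pass with at least a 2-fold difference was found for 386 (6.09%, against 7.02% of all probes). Leaving out ICH 2 or ICH 3 gave 568 and 560 calls, in fits where slide 1 keeps 1 ICH array that is assumed to vary like the other groups. Scaled on the ASMM10P probes alone, 50.9% of the called members were higher on slide 2, against 61.6% above. There were 11 members on which ICH 1, ICH 4 and ICH 5 were all at least 4-fold below every sham array and both ICH arrays of slide 1 (0.173% of tested members, against 0.188% of all tested probes). In 10 of the 11, all 5 BYHWD arrays lay between those sets of arrays. That position was not counted over all probes, so it is not shown to be particular to the members. At least 4-fold above in the same way were 2 members (0.0315%, against 0.0174% of all tested probes). The arrays of slide 2 also had the largest 3′ to 5′ Gapdh difference and the lowest 75th percentiles of the ICH group (261 to 303, against 421 and 453), and the part of these in the members' differences was not tested.

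Over the tested members, ICH and sham arrays of slide 1 lay together. On the first principal component of the tested members, which held 31.8% of the variance, sham lay at -26.5 to -12.3 and the ICH arrays of slide 1 at -15.2 and -13.3, inside the range of sham. ICH arrays of slide 2 lay at 24.8 to 26.1 and BYHWD at 4.6 to 11.9. The second component, with 16.8% of the variance, held BYHWD at 14.6 to 18.7, above the other 10 arrays. Pairs of arrays within a group and a slide differed with an SD over members of 0.43 at the median (24 pairs). Pairs of different groups on slide 1 had the same median of 0.43 (10 pairs), and ICH pairs across slides had 0.65 (6 pairs). No array repeated another: the smallest such SD was 0.35.

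With the decoction, 367 of the 6342 members differed from untreated hemorrhage (limma adjusted p under 0.05), of which 273 were higher in BYHWD and 94 lower. This is 5.79% of the members, near the 6.13% of all tested probes. The higher members were 4.30% of those tested, against 3.62% of all probes, and the lower members 1.48%, against 2.51%. The median difference of the higher members was 0.64 (1.56-fold) and of the lower -0.54 (1.45-fold), and 40 members passed with at least a 2-fold difference (0.63%, against 0.554% of all probes). The median over all 6342 tested members was 0.05, against 0.00 over all tested probes. In 277 of the called members the BYHWD arrays did not overlap with the ICH arrays (4.37%, against 4.47% of all probes).

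BYHWD fills slide 3, so these differences and those between slides cannot be told apart. With slide as a random block 0 members passed (limma), against 0.00194% of all probes. The correlation used in that fit rests on the slide split of the ICH group, since BYHWD and sham each lie on a single slide. That fit therefore cannot decide between slide and decoction. At an unadjusted p under 0.05 that fit gave 368 members (5.80%, against 6.14% of all probes). Against the ICH arrays of slide 1 alone, 545 members differed, 503 of them higher (8.59% in all, against 7.17% of all probes). Against those of slide 2 alone, 1389 differed, 849 of them higher (21.9%, against 27.7% of all probes). Which members were called also changed with the ICH slide. The fit that dropped the slide 2 ICH arrays called 522 members, only 128 of them among the 367. Dropping those of slide 1 gave 1304, with 333 of the 367. Without BYHWD 1, BYHWD 2, BYHWD 3 or BYHWD 5 the 367 calls became 143, 128, 106 and 172. Without ICH 1, ICH 3, ICH 4 or ICH 5 they became 157, 657, 207 and 181, and without sham 5, through the shared estimate of spread, 233. Shares over all probes are not given for these fits either, so the moves may not be particular to the members.

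ASMM10P056532V4 had the largest difference upward with the decoction among members well above background on all arrays with no overlap. Its ICH levels were -3.66, -3.73, -2.82, -3.64 and -4.20 and its BYHWD levels -1.75, -2.16, -1.99, -2.18 and -1.88. Every BYHWD array was above every ICH array of either slide. The mean went from -3.61 ± 0.50 to -1.99 ± 0.18 (SD, n = 5), a difference of 1.62 ± 0.20 (SE) or 3.07-fold (limma adjusted p = 0.00258). The difference was 1.28 against the ICH arrays of slide 1 (limma adjusted p = 0.00586) and 1.84 against those of slide 2. Sham levels of -2.93, -2.56, -3.33, -3.03 and -2.95 were also below every BYHWD array, by 0.97 on average (limma adjusted p = 0.00619). ICH against sham was -0.65 (limma adjusted p = 0.0687, and 0.0111 without ICH 3). With slide as a random block, neither the difference from ICH nor that from sham passed (adjusted p = 0.675 and 0.423), and after normexp correction with quantile normalization the differences were 0.66 and 0.38, both past the test.

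ASMM10P033002V4 had the largest difference downward by the same rule. Its ICH levels were -2.16, -2.21, -2.62, -1.25 and -2.75, and its BYHWD levels -3.45, -3.19, -3.86, -3.98 and -2.84. The groups did not overlap, although ICH 5 and BYHWD 5 were only narrowly apart. The difference was -1.27 ± 0.36 (SE), with a limma adjusted p of 0.0475, just under the threshold. The call was lost without any 1 of the BYHWD arrays, of ICH 1, ICH 2, ICH 4 and ICH 5, or of sham 2 and sham 5, with adjusted p of 0.0548 to 0.103. It was also lost without a filter on dim probes (0.0608) and with slide as a random block (0.773). The difference was -1.05 against the ICH arrays of slide 1 (limma adjusted p = 0.197) and -1.41 against those of slide 2 (0.0202). Sham levels of -3.33, -1.98, -3.11, -1.51 and -2.0 overlapped with both other groups. BYHWD was -1.08 relative to sham (limma adjusted p = 0.0476). That call was lost as well, with adjusted p of 0.0525 to 0.106, without sham 2, sham 4, sham 5, ICH 1, ICH 2 or any of BYHWD 1 to BYHWD 4.

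BYHWD against sham gave the most calls of the 3 comparisons between groups. It shares its arrays with the comparisons above and adds no independent evidence to them. Of the 6342 members, 1145 differed (limma adjusted p under 0.05), with 969 higher in BYHWD and 176 lower. This is 18.1%, near the 17.3% of all tested probes. The higher members were 15.3%, against 12.7% of all probes, and the lower members 2.78%, against 4.62%. That split moved with the scaling: 84.6% of the called members were higher here, 73.8% after quantile normalization, 73.5% when scaled on the ASMM10P probes alone, 72.2% after normexp with quantile normalization and 73.3% in the authors' deposited values. The higher members had a median difference of 0.69 (1.61-fold) and the lower of -0.55 (1.47-fold).

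At least a 2-fold difference with a pass was found for 205 members in BYHWD against sham (3.23%, against 2.69% of all probes), and 855 called members had no overlap between the groups (13.5%, against 12.4%). Sham and BYHWD lie on different slides, and with slide as a random block 0 members passed (limma), against 0.00581% of all probes. As in BYHWD against ICH, that fit cannot decide between slide and group. The same fit gave 522 members at an unadjusted p under 0.05 (8.23%, against 8.21% of all probes). Leaving out BYHWD 2 gave 737 calls among the members, and the share over all probes is not given for that fit.

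The sizes of the differences depended on brightness in all 3 comparisons. From the dimmest to the brightest of the 4 equal sets of tested probes, the members' median difference in ICH against sham was 0.12, 0.10, 0.06 and -0.02. In BYHWD against sham it was 0.22, 0.13, 0.04 and -0.04, and in BYHWD against ICH 0.13, 0.05, 0.01 and 0.01. The other tested probes showed a like gradient, with 0.15, 0.07, 0.01 and -0.04 in ICH against sham and 0.17, 0.05, -0.03 and -0.09 in BYHWD against sham. In BYHWD against ICH theirs were 0.03, -0.01, -0.03 and -0.01.

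Few members were well above background on every array of 1 group and on none of another, a pattern that decides in part which of them could be tested and is given here without a test. In ICH against sham, 1 member was well above background on all 5 ICH arrays and on no sham array, at least 1.83-fold higher, among 9 such probes in all. The opposite held for 1 member, at least 1.15-fold lower, among 5 probes. In BYHWD against ICH, 2 members were well above background on all BYHWD arrays and no ICH array, with bounds of at least 1.41-fold and 1.54-fold, among 14 probes. The opposite held for 0 members and 23 probes. In BYHWD against sham 5 members were detected on all BYHWD arrays alone, with bounds of at least 1.60-fold to 2.95-fold, among 23 probes. On all sham arrays alone there were 9 members, at least 1.09-fold to 1.60-fold lower in BYHWD, among 55 probes. Each bound sets the bright group against the lowest signal well above background on the dim arrays, or the dim probe's own signal where that is higher.

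The number inside the identifier ran from 16 to 58274. From 10001 upward, 75.2% to 81.7% of members were tested in each block of 10000 numbers. In those blocks the share called ran from 3.55% to 4.56% in ICH against sham, from 5.0% to 7.0% in BYHWD against ICH and from 16.4% to 21.4% in BYHWD against sham. The median correlation between members differed with the distance between their numbers, but did not fall steadily, and no test was run. Over the 15 arrays, 1772 pairs of members with consecutive numbers had a median r of 0.13, and 40 pairs (2.26%) had r over 0.9. Pairs 10 numbers apart had a median of 0.04, with 4 of 1196 pairs (0.33%) over 0.9. Pairs 50 apart had a median of 0.08, with 0 of 1100 pairs over 0.9. Pairs 1000 apart had a median of 0.04, with 2 of 735 pairs (0.27%) over 0.9. All of these pairs share the same arrays and their shifts, and the files do not say what the numbers encode.

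A few members set some arrays of a group apart from the rest. The 5 members with the largest spread among sham arrays were all far higher on sham 4 and sham 5 than on every other array. Their levels were 1.02 to 2.78 on sham 4 and -0.69 to 1.47 on sham 5, against -5.48 to -2.06 on the other 13 arrays. On sham 4 they were 8.45 to 33.7 times as bright as on the highest of those 13 arrays, and on sham 5, 2.59 to 13.6 times. One of them, ASMM10P045965V4, named after its values were seen, had levels of -3.16, -2.80, -3.21, 2.78 and 1.47 in sham 1 to sham 5. Its ICH levels were -2.74, -2.89, -3.65, -2.29 and -3.73 and its BYHWD levels -2.43, -3.58, -3.35, -4.06 and -3.14. The identifiers of 4 of the 5 lie between 45925 and 45965, a stretch whose ends were set by those members themselves. It holds 8 members, 6 of them tested. Over the whole array, 8 tested probes, 3 of them members, were at least 4-fold above the other 13 arrays on both sham 4 and sham 5. No member was 4-fold below in that way. What these transcripts are could not be read from the files.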

How the data were processed

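Spot intensity was deposited as scanner output of Agilent Feature Extraction (named in the submitters' processing notes), version 11.0.1.1 per the file headers. Its processed signal is background-corrected per array and unscaled between arrays, per the file headers. The authors' deposited table holds log2 values, and how they were made is not stated. It served as an alternative.

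From the scanner files, control spots (1439 of 62976) were left out, and the 75th percentile over the remaining spots of each array was subtracted from the log2 intensity. Outlying spots were left out of the probe values but not of that percentile. Probes well above background on at least 5 of 15 arrays were tested, except the small name classes ASSPINKEIN, CUST_ and MM. Of the members, 23 had a left-out spot on some array. Groups and replicate numbers came from the titles. limma 3.58.1 (R 4.3.3, lmFit and eBayes, 2-sided) was fitted to all 51669 tested probes and all 15 arrays, and p-values were adjusted over all of them by Benjamini-Hochberg. The comparison of ICH arrays by slide used the same fit with ICH divided by slide. Same-numbered arrays did not deviate together from their group means (r of -0.34 to 0.09 over all tested probes). In ICH these deviations also hold the difference between slides, so they cannot settle whether the numbers pair samples. The main fit used no pairing, and a replicate block served as an alternative.

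The members, the tests and the rule for named probes were chosen with earlier results of these data known. The rule took the largest rise and the largest fall in ICH against sham and in BYHWD against ICH, among called members well above background on all 15 arrays with no overlap between the groups, which left 105, 32, 184 and 68 candidates. In ICH against sham a pass with slide as a fixed block was required where any member had one. Normexp (offset 50) used median signals, since no mean signal was at hand. Alternatives covered normalization, background, filter, variance model, blocks and each array left out. The repeat-spot error could not be had for members, which have 1 spot each.

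On simulated arrays with 200 of 51669 probes changed in ICH against sham, the fit recovered 38 probes changed 1.5-fold, 144 changed 2-fold and 196 changed 4-fold, with 6, 7 and 4 false calls. The simulation held no slide effect. Dim signal and 5 arrays per group limit the precision.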

Additional observations from a re-analysis of the deposited data

Results flagged for a closer look

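Of 30 sets of 5 arrays examined, 2 had an array that stood far from the other 4, where chance gives about 1 in 20. For ASMM10P012916V4 in the BYHWD group, BYHWD 2 stood at 0.49, against -0.00 to 0.05 on the other 4 arrays, and the gap was 0.882 of the whole range. For the median level of all members, BYHWD 4 stood at -2.77, against -2.63 to -2.58 on the other BYHWD arrays, and the gap was 0.718 of the range. The median over all probes was also lowest on BYHWD 4 in that group, at -2.22 against -2.15 to -2.12, so this was not particular to the members.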

How the results depend on the processing

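The counts of called members moved most with slide and with single arrays. Except for the slide blocks, the share called over all probes is not given for these alternatives. The moves are therefore not shown to be particular to the members. For ICH against sham (258 members), the alternatives that moved the count by over 1.5 times were the authors' deposited table (42), the fit of those groups alone (54), the replicate block (109), slide as a fixed block (3), slide as a random block (19), and the fits that dropped the slide 1 ICH arrays (1931) or the slide 2 ICH arrays (1). Leaving out 1 array at a time gave 33 to 1027. For BYHWD against ICH (367), they were the fit of those groups alone (about 2.4e+02), the replicate block (78), slide as a random block (0, with 368 at an unadjusted p under 0.05, limma) and the fit that dropped the slide 1 ICH arrays (1304), and single arrays gave 106 to 657. For BYHWD against sham (1145), slide as a random block gave 0 (522 unadjusted, limma), the replicate block 820, and single arrays 737 to 1221. For the ICH arrays of slide 2 against slide 1 (1166), single arrays gave 560 to 1320, and all alternatives for this comparison were chosen after seeing the data. Quantile normalization, normexp followed by it, scaling on the ASMM10P probes alone, either filter and the trended robust variance moved none of these 4 counts by over 1.5 times. A like count did not mean the same members. After normexp with quantile normalization, 144 of the 258 main calls remained in ICH against sham and 281 of 367 in BYHWD against ICH. In BYHWD against sham 754 of 1145 remained, and between the ICH slides 784 of 1166.

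Some differences of named probes changed sign. For ASMM10P050649V4, BYHWD minus ICH was -0.82 without the ICH arrays of slide 2. For ASMM10P033002V4, ICH minus sham was -0.047 without ICH 4, -0.047 without sham 1 (-0.047 to 0.41 over single arrays), and -0.027 with the slide 2 ICH arrays dropped or with slide as a fixed block. For ASMM10P032819V4, ICH minus sham was -0.72 without the ICH arrays of slide 2 or with slide as a fixed block and -0.34 with slide as a random block. Its BYHWD minus ICH was -0.052 without ICH 2, -0.014 without ICH 3 (-0.052 to 0.39 over single arrays) and -0.42 without the ICH arrays of slide 1, and its BYHWD minus sham was -0.051 with slide as a random block. Apart from the fits with fewer arrays, the cause was not tested. With the replicate block, the call of ASMM10P050649V4 in ICH against sham was lost (adjusted p = 0.0611), as were those of ASMM10P033002V4 in BYHWD against ICH (0.0727) and in BYHWD against sham (0.0530) and that of ASMM10P012916V4 in BYHWD against sham (0.0518). The block changed no other call of a named probe.

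Arrays and signal limit all of this. With the software's weaker flag, for signal positive and significant against background, 89.0% to 92.6% of members pass per array. The dimmest of 4 equal sets of tested probes holds 29.5% of the tested members, and 1570 members were not tested.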
